A study of Mus musculus and Homo sapiens
Mus musculus with 12 samples.

Results

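Voltage-gated calcium channels were followed here through the genes of their pore-forming alpha-1 subunits, Cacna1a, Cacna1b, Cacna1c, Cacna1d, Cacna1e, Cacna1f, Cacna1g, Cacna1h, Cacna1i and Cacna1s. They are the 10 genes with these symbols among 34496 genes in the brain count tables, and all 10 were listed in each of the 7 libraries. They were chosen by name and not by a rule on their values, though with earlier results of these data known. The libraries were made by snHH-seq, in which random primers copy total RNA inside single nuclei and each captured cDNA fragment is counted once as a UFI, a unique fragment identifier. The nuclei came from brain of wild-type C57BL/6J male mice aged 6 to 8 weeks, a background that all groups shared, and no drug treatment is named for any of them. Nuclei were isolated from the tissue and fixed before reverse transcription.

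Libraries differed in storage, frozen or fresh tissue, and in the reverse transcription primer, which carried a second cell barcode (the preindex) or did not. There were 2 libraries of frozen tissue without preindex, 2 of frozen tissue with preindex, 2 of fresh tissue without preindex and 1 of fresh tissue with preindex. These groups follow the titles of the samples. For 4 of the 7 libraries the treatment label names the opposite primer. The length of the barcodes, 40 bases in the 3 preindexed libraries by title and 30 in the others, went with the titles. Under the treatment label every frozen library would lack the preindex and every fresh library would carry it, and storage and primer could not be told apart. No label ties a library to an animal, so the p-values below measure the spread between these libraries, which may be technical.

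The alpha-1 subunit is the large membrane protein that forms the calcium-selective pore and the voltage sensor of the channel, and auxiliary alpha-2-delta and beta subunits help to bring it to the membrane and tune its gating. The high-voltage-activated members are the L-type channels of Cacna1c, Cacna1d, Cacna1f and Cacna1s, known for coupling calcium entry to contraction, pacemaking and transcription, and the P/Q-type (Cacna1a), N-type (Cacna1b) and R-type (Cacna1e) channels, known above all for transmitter release. The low-voltage-activated T-type channels of Cacna1g, Cacna1h and Cacna1i open near the resting potential and support burst firing, for which thalamic neurons are the textbook case.

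A known sequence difference between these classes lies in the pore loops, of which that of the last of the channel's repeats is shown. The stretches below are printed because they carry that difference for members the results turn on and for Cacna1b, which stands for the release channels. Each is 30 coding bases from GENCODE vM21 on GRCm38, read on the strand of the gene, with the codon of the selectivity residue in capitals, which is a glutamate codon in the N-, L- and R-type genes and an aspartate codon in the 3 T-type genes.
Cacna1b: agtgccactgggGAGgcctggcatgagatc
Cacna1c: tgtgccaccggaGAGgcctggcaggacatc
Cacna1e: agtgccacggggGAGgcttggcaggagatt
Cacna1g: gtctccactggtGACaactggaatggtatt
Cacna1h: gtgtccactgggGACaactggaatgggatc
Cacna1i: gtctccacaggcGATaactggaatgggatt

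These stretches lie at chr2:24635210-24635239 (coding exon 36 of 47 of Cacna1b, minus strand), chr6:118614047-118614076 (coding exon 36 of 48 of Cacna1c, minus strand), chr1:154425972-154426001 (coding exon 37 of 47 of Cacna1e, minus strand), chr11:94416412-94416441 (coding exon 32 of 38 of Cacna1g, minus strand), chr17:25377768-25377797 (coding exon 30 of 34 of Cacna1h, minus strand) and chr15:80388485-80388514 (coding exon 30 of 36 of Cacna1i, plus strand). The stretch of Cacna1a is not shown. Over all 10 genes, the T-type stretches differed from each other at 4 or 5 of the 30 bases and the high-voltage stretches from each other at 2 to 10, where the values of 7 to 10 were those of Cacna1a. A T-type and a high-voltage stretch differed at 9 (Cacna1b and Cacna1h) to 15 bases, so the ranges within and between the classes overlapped. Because the counts take in introns, most of the sequence behind a UFI lies elsewhere in the gene, and the counts do not separate splice forms.

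The 7 libraries held 11198 nuclei and 180739290 UFIs, from 8605214 to 42439731 UFIs per library, with a median of 12635.5 UFIs per nucleus. A total of 32 barcodes occurred in more than 1 library, in 64 nuclei. Clustering gave 27 kinds of nuclei, which were named from marker genes or, where no marker list applied, are called by their leading genes. Neuron-like nuclei made up 80.3% to 94.5% of a library. Some kinds were held by particular libraries, and these touch several results below. Kidney-like nuclei, led by genes of the tubule such as Slc34a1, Lrp2 and Slc12a1, were found only in the 2 frozen preindexed libraries (268 and 213 nuclei, 11.7% and 10.7%), although the tissue label is brain. Cerebellar granule and Purkinje nuclei made up 11.3% and 10.8% of the frozen libraries without preindex and 3.30% and 3.31% of the fresh ones, and none was found in the 3 preindexed libraries. This absence is that of the main clustering. With 20 principal components the Purkinje neuron-like cluster held 9 and 3 nuclei of the frozen and 4 of the fresh preindexed libraries. The cerebellar granule cluster then held 0 and 1 of the frozen and 3 of the fresh preindexed libraries. A cluster of 92 nuclei led by the liver genes Cps1, Cyp2b9 and Cyp3a25, in which all 7 microglia markers were raised too, had 4 to 31 nuclei in each of the 7 libraries. The 20 nuclei richest in liver transcripts were all in the fresh preindexed library.

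Most of the alpha-1 genes were abundant and 2 were close to absent in these brains. The summed counts over the 7 libraries were 326473 UFIs for Cacna1c, 215334 for Cacna1e, 149843 for Cacna1a, 112508 for Cacna1d, 82450 for Cacna1b, 23732 for Cacna1i, 20342 for Cacna1g and 10406 for Cacna1h, against 96 for Cacna1s and 45 for Cacna1f, the channels known from skeletal muscle and retina. Since the genes span from 28.114 to 609.179 kb, levels between genes were compared per kilobase of gene. On that scale, UFIs as a share of the library total (CPM) and per kb of gene over all nuclei, Cacna1a stood at 3.39 ± 0.445 (SD, n = 7 libraries), Cacna1c at 2.91 ± 0.175 and Cacna1b at 2.86 ± 0.245. The genes were counted in the same 7 libraries, and differences between genes within a library were not tested. Cacna1e followed at 2.39 ± 0.148, Cacna1g at 1.81 ± 0.548, Cacna1d at 1.36 ± 0.0655, Cacna1i at 1.15 ± 0.123 and Cacna1h at 0.954 ± 0.110. Cacna1f and Cacna1s lay at 0.00859 and 0.00827 CPM per kb. The short T-type gene Cacna1g and the long L-type gene Cacna1d, whose raw count was higher, differed per kb by less than the SD of Cacna1g, so their order is not resolved.

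All levels by kind of nuclei that follow are UFIs of a gene per 10000 UFIs, summed over the nuclei of that kind in a library, given as mean ± SD over the libraries that held at least 10 such nuclei. They are a description of clusters and carry no test, because the kinds are clusters made from these same nuclei. The 10 members were left out of the variable genes used for clustering. Each member had its own order of kinds, and the kinds at the top for 1 gene were often near the bottom for another.

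**Figure D1:**
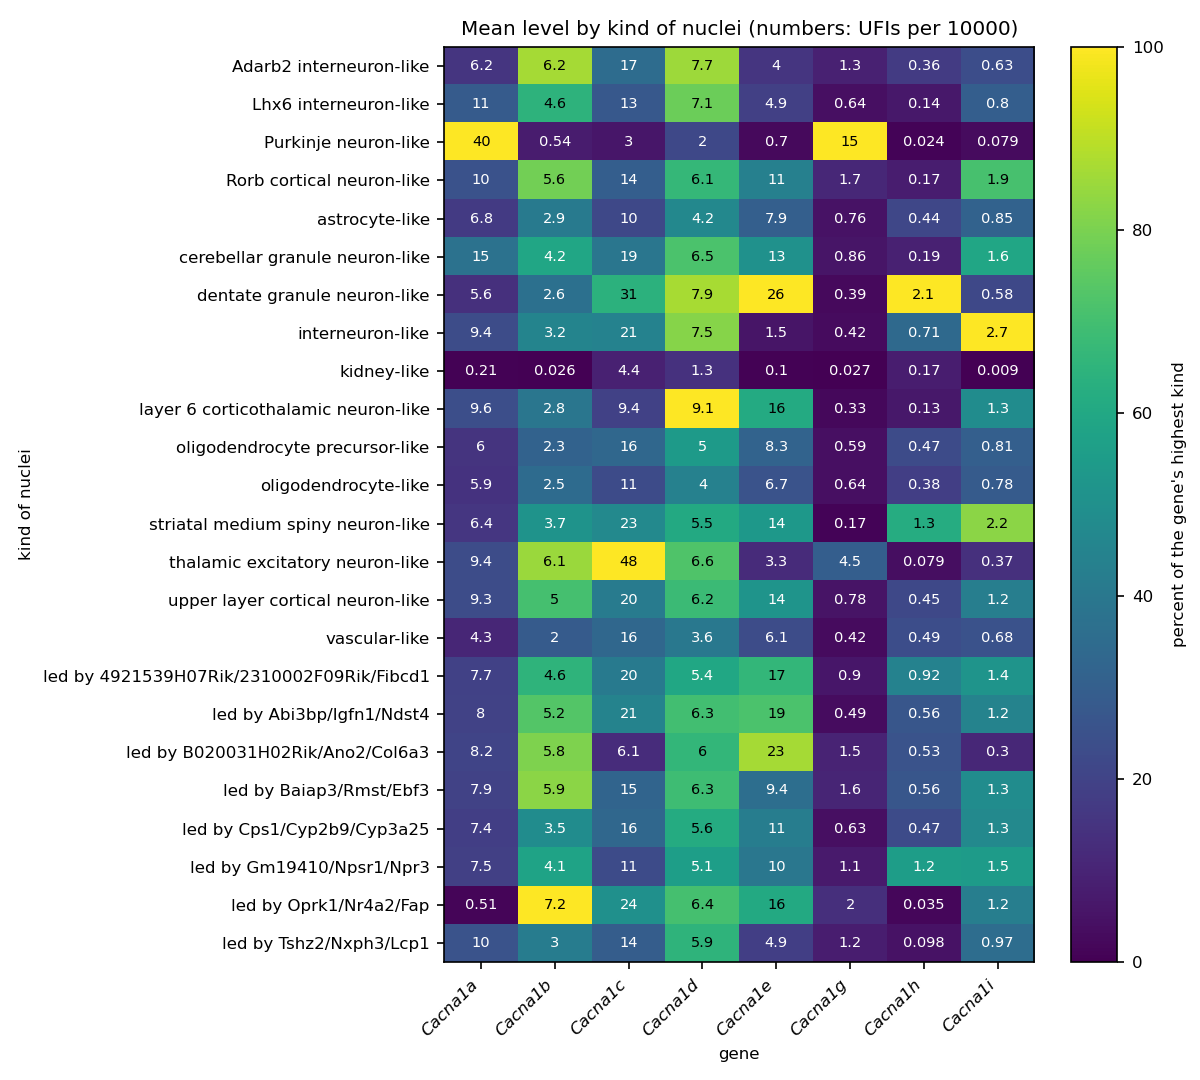
Level of 8 alpha-1 genes (columns) in 24 kinds of nuclei found in at least 2 libraries (rows), with the mean UFIs per 10000 written in each cell and the colour giving it as a percent of the gene's highest kind. Purkinje neuron-like nuclei are at the top for Cacna1a (40.1) and Cacna1g (14.9), thalamic nuclei for Cacna1c (48.2) and dentate granule nuclei for Cacna1e (26.1) and Cacna1h (2.08), while the kidney-like row is low throughout.

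Cacna1a, the P/Q-type subunit (chr8:84388440-84640246, plus strand, GRCm38), was highest in Purkinje neuron-like nuclei. The 2 libraries with enough of these nuclei, both frozen without preindex, had 41.6 and 38.6 UFIs per 10000, and the fresh libraries without preindex had 47.6 from 1 nucleus and 32.5 from 6 nuclei. Cerebellar granule nuclei came next at 15.2 ± 1.54 (4 libraries), with 13.4 and 14.4 in frozen and 16.7 and 16.2 in fresh tissue. The Purkinje values did not overlap those of the granule nuclei, which overlapped those of the Lhx6 interneuron-like nuclei at 11.5 ± 1.51 (7 libraries, 9.76 to 13.9). From there the levels ran down from 10.3 ± 0.738 in a cluster led by Tshz2, Nxph3 and Lcp1 to 5.60 ± 0.945 in dentate granule nuclei. Each kind between them overlapped the next lower one, but the ends of this run did not overlap. A neuron-like cluster of 96 nuclei was far lower. This cluster, led by Oprk1, Nr4a2 and Fap, had 0.510 ± 0.576 UFIs per 10000 (4 libraries, 0.0485 to 1.27), close to the 0.215 ± 0.0145 of kidney-like nuclei, although its Cacna1b level was the highest and its Cacna1c level the third highest of 26 kinds. A small cluster led by Syt9, Chrna3 and Chrnb4, of which the last pair encode nicotinic receptor subunits, had 0.179 in the only library with enough nuclei (16).

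Cacna1b, the N-type subunit that shares transmitter release with the P/Q type (chr2:24603887-24763152, minus strand), was spread more evenly. It was highest in the same Oprk1-led cluster, at 7.15 ± 0.990 (4 libraries), and Adarb2 interneuron-like nuclei at 6.18 ± 0.595, thalamic nuclei at 6.07 ± 0.811 and the Rorb cortical nuclei at 5.62 ± 0.422 overlapped it in turn. Down to the vascular-like nuclei at rank 22 of 26, every kind overlapped the next lower one, so most of this order is not resolved. Purkinje neuron-like nuclei had 0.347 and 0.731 UFIs per 10000 in their 2 libraries, so the kind with the most Cacna1a had the least Cacna1b of any neuron kind in at least 2 libraries. The Syt9-led cluster had no Cacna1b UFI in its 1 library.

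Cacna1e, the R-type subunit (chr1:154390731-154884501, minus strand), was highest among kinds with at least 2 libraries in dentate granule nuclei, at 26.1 ± 2.28. The libraries gave 22.3 and 24.5 in frozen tissue without preindex, 25.9 and 26.6 in frozen tissue with preindex, 28.8 and 26.0 in fresh tissue without preindex and 28.6 in fresh tissue with preindex. A cluster led by B020031H02Rik, Ano2 and Col6a3 overlapped these values, with 22.6 ± 4.81 over 5 libraries (16.3 to 29.2), and held no nuclei in either frozen library without preindex. The Syt9-led cluster was higher still, at 45.3 in its 1 library of 16 nuclei. Thalamic nuclei lay at the low end with 3.26 ± 1.31 (1.04 to 5.14), below the 14.0 ± 0.428 of striatal medium spiny nuclei and the 13.5 ± 0.625 of upper layer cortical nuclei. The interneuron kinds were low, at 4.94 ± 0.865 for Lhx6, 3.98 ± 1.24 for Adarb2 and 1.51 ± 0.922 for a small interneuron-like cluster (2 libraries), and Purkinje nuclei had 0.701 ± 0.124.

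Cacna1c, the main L-type subunit of brain and heart (chr6:118587240-119196418, minus strand), was highest in thalamic excitatory nuclei, at 48.2 ± 6.0 (7 libraries). The values were 54.2 and 45.5 in frozen tissue without preindex, 50.2 and 56.7 in frozen tissue with preindex, 42.8 and 40.0 in fresh tissue without preindex and 47.8 in fresh tissue with preindex. All 7 exceeded every library's value of the next kind, dentate granule nuclei at 31.0 ± 5.61. Within the dentate kind the preindexed libraries were the high ones, with 36.5, 36.6 and 37.4 against 25.7, 24.9, 28.6 and 27.1 in those without preindex, a gap that was not tested within that kind. Striatal medium spiny nuclei had 22.8 ± 1.58 and upper layer cortical nuclei 20.04 ± 1.96, and their ranges overlapped. Layer 6 corticothalamic nuclei, the cortical partners of the thalamic nuclei, were low at 9.40 ± 0.727, and the Ano2-led cluster had 6.08 ± 0.456. Purkinje nuclei were the lowest kind, at 1.42 and 4.57 in their 2 libraries.

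Cacna1d, the L-type subunit that opens at more negative voltages and is known for pacemaking (chr14:30039939-30491455, minus strand), had the flattest pattern. Layer 6 corticothalamic nuclei led the kinds with at least 2 libraries at 9.10 ± 0.357 (7 libraries, 8.71 to 9.59), and none of their values overlapped those of the dentate granule nuclei at 7.92 ± 0.629. The kinds below overlapped their neighbours as far as vascular-like nuclei at 3.64 ± 1.13. Thus Cacna1d was highest in the layer 6 kind in which Cacna1c was lowest of the named cortical kinds. The Syt9-led cluster had 11.6 in 1 library. Cacna1d spans 7 other annotated genes, 6 of them on the opposite strand, and although the study describes its UFIs as strand-specific, the strand option of the gene counting is not stated, so whether reads of these genes enter its count was not tested.

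The 2 remaining L-type genes, Cacna1f of the retina and Cacna1s of skeletal muscle, had 45 and 96 UFIs in all. Their highest mean levels in any kind were 0.00678 (the Oprk1-led cluster, 1 UFI) and 0.0111 UFIs per 10000 (oligodendrocyte precursors, 2 UFIs). At such counts no order of kinds could be read.

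**Figure D2:**
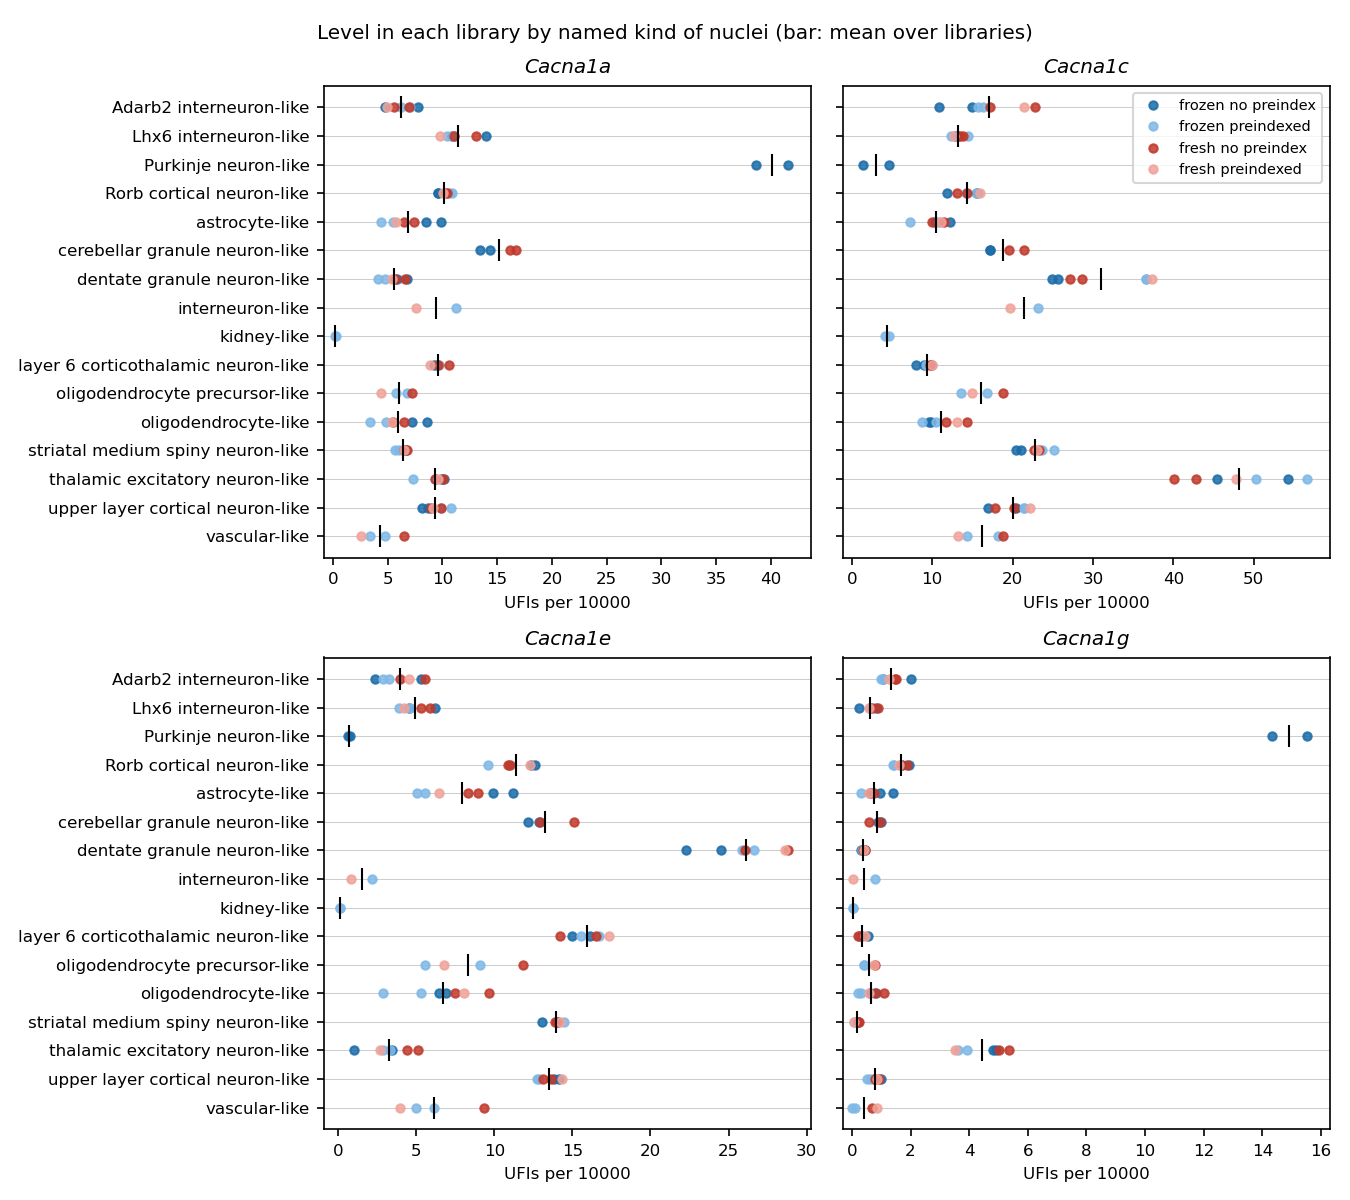
Levels in UFIs per 10000 (horizontal axis) of Cacna1a, Cacna1c, Cacna1e and Cacna1g in the named kinds of nuclei (vertical axis). Each dot is 1 library with at least 10 nuclei of that kind, coloured by group, and the bar is the mean over libraries. The Purkinje dots for Cacna1a (38.6 and 41.6) and Cacna1g, and the 7 thalamic dots for Cacna1c (40.0 to 56.7), stand clear of the other kinds.

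Among the T-type genes, Cacna1g (chr11:94408391-94474198, minus strand) marked Purkinje and thalamic nuclei. Purkinje nuclei had 14.3 and 15.5 UFIs per 10000 in the frozen libraries without preindex, and 17.2 (1 nucleus) and 16.6 (6 nuclei) in the fresh ones. Thalamic nuclei had 4.45 ± 0.750, with 4.92 and 4.81 in frozen tissue without preindex, 3.62 and 3.92 in frozen tissue with preindex, 5.02 and 5.37 in fresh tissue without preindex and 3.51 in fresh tissue with preindex. Here each of the 3 preindexed libraries lay below each of the 4 others. The thalamic values did not overlap those of the next kind, the Oprk1-led cluster at 2.01 ± 0.688, followed by Rorb cortical nuclei at 1.67 ± 0.210. Striatal medium spiny nuclei were near the bottom, at 0.169 ± 0.0658.

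Cacna1h (chr17:25374285-25433783, minus strand) and Cacna1i (chr15:80287238-80398279, plus strand), the other T-type subunits, were low in the Purkinje and thalamic kinds that led for Cacna1g, while in Rorb cortical nuclei Cacna1i was high as well. Cacna1h was highest in dentate granule nuclei, at 2.08 ± 0.433 (7 libraries, 1.59 to 2.85), which did not overlap the 1.28 ± 0.119 of striatal medium spiny nuclei. Thalamic nuclei had 0.0788 ± 0.0711 Cacna1h UFIs per 10000, and 2 Cacna1h UFIs were seen in the 27 Purkinje nuclei of the frozen libraries. Cacna1i was highest in a small interneuron-like cluster of 43 nuclei led by Gm45260 and Six3, at 2.64 and 2.75 in 2 libraries. This rank depended on the clustering, and kinds were matched between settings by name. With 20 principal components the cluster named interneuron-like held 926 nuclei, was led by genes such as Sst, Npy and Lhx6, and had 0.685. With unscaled genes the cluster of that name had 0.978, and the name was highest in 7 of 11 settings. How the level in the 43 nuclei themselves moved was not tested. A cluster led by Sh3rf2, Gli3 and Adora2a had 2.30 in 1 library. Next came striatal medium spiny nuclei at 2.23 ± 0.194 (1.84 to 2.41) and Rorb cortical nuclei at 1.91 ± 0.331, which overlapped each other. Thalamic nuclei had 0.375 ± 0.177 and Purkinje nuclei 0.0787 ± 0.0221. The nuclei of medium spiny neurons, the output neurons of the striatum, thus held Cacna1h and Cacna1i at over 1 UFI per 10000 and Cacna1g under 0.25 in every library.

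Shares of nuclei with a UFI of a gene were counted after each nucleus was thinned at random to 3000 UFIs, so that depth was equal, which left out 3 nuclei of lower depth. Shares are given with exact Clopper-Pearson 95% intervals, which cover counting error only and treat nuclei of all libraries together. A Cacna1c UFI was found in 348 of 348 thalamic nuclei (interval 98.9% to 100%), in 98.0% of medium spiny nuclei and in 23.5% of 34 Purkinje nuclei (10.7% to 41.2%). A Cacna1a UFI was found in 34 of 34 Purkinje nuclei (89.7% to 100%). For Cacna1g the shares were 94.1% of Purkinje, 67.5% of thalamic (62.3% to 72.4%) and 3.56% of medium spiny nuclei (2.63% to 4.69%), against 97.4% of thalamic and 10.5% of medium spiny nuclei before thinning. For Cacna1e they were 99.3% of dentate and 42.2% of thalamic nuclei, and for Cacna1h 41.0% of dentate, 28.8% of medium spiny and 2.01% of thalamic nuclei.

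Kidney-like nuclei, found only in frozen preindexed libraries, served as the kind in which genes of neurons should be lacking. After thinning, 5.61% of these 481 nuclei had a Cacna1a UFI (3.73% to 8.06%, and 12.7% before thinning), 2.70% a Cacna1e UFI, 0.832% a Cacna1g UFI and 0.832% a Cacna1b UFI. Their median depth was 8765 UFIs, against 15748.5 in thalamic and 12390.5 in dentate nuclei. The shares of Cacna1c (14.3%) and Cacna1d (25.4%) in kidney-like nuclei were higher. Cacna1d was found in more of these nuclei than Cacna1c, although Cacna1c had the higher level there, at 4.37 ± 0.298 against 1.31 ± 0.0696 UFIs per 10000. The share of Cacna1h in thalamic nuclei, 2.01%, lay below the 3.53% in kidney-like nuclei, and no expression is read from it. Whether kidney-like nuclei express Cacna1h themselves was not tested.

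A nucleus thinned to 3000 UFIs showed a mean of 4.49 of the 10 members over all 11195 nuclei with that depth. The mean was 5.08 in Rorb cortical nuclei and 2.91 in Purkinje nuclei, 2.90 in oligodendrocyte-like nuclei, and 0.534 in kidney-like nuclei, of which 58.8% showed none. The median was 5 members over the 9857 neuron-like nuclei, so that several alpha-1 genes were seen behind the same barcode. No doublet caller was run, and the part of doublets in these counts was not tested.

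Levels in glial and vascular kinds depended on whether a nucleus also held a UFI of Rbfox3, a gene of neurons. In oligodendrocyte-like nuclei without an Rbfox3 UFI (113 of 334), Cacna1c stood at 2.34, Cacna1a at 1.40 and Cacna1e at 0.412 UFIs per 10000. In those with one, the levels were 14.1, 6.90 and 8.65, and the median depth was 15863 against 9624 UFIs. Astrocyte-like nuclei followed the same order, with Cacna1c at 2.56 in the 61 nuclei without and 12.1 in the 159 with an Rbfox3 UFI. Cacna1c kept more of its level in 2 other kinds. It was 11.6 against 18.2 in oligodendrocyte precursors (46 of 113 nuclei without Rbfox3) and 14.1 against 17.3 in vascular-like nuclei (33 of 71 without), while in the same vascular-like nuclei Cacna1a was 1.39 against 7.43 and Cacna1e 2.25 against 10.4. The part of mixed barcodes or free RNA in these levels was not tested.

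**Figure D3:**
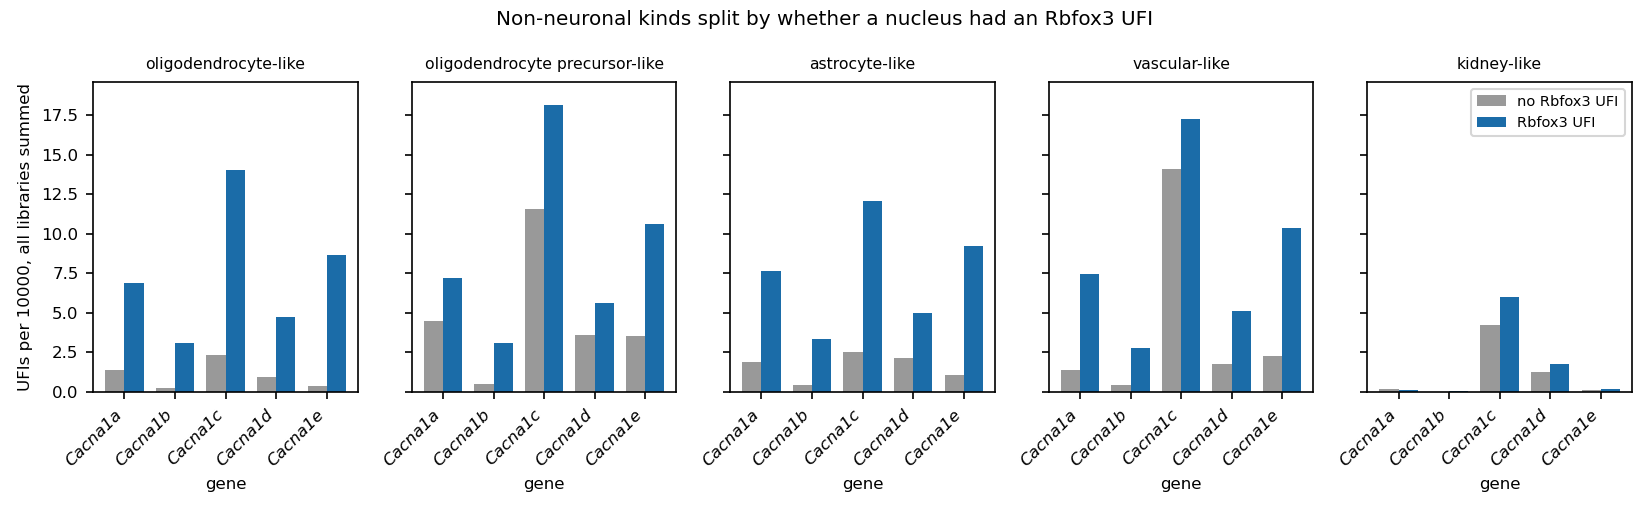
Levels of 5 high-voltage-activated members (bars, UFIs per 10000 over all libraries summed, with no replicate error) in 5 non-neuronal kinds, split by whether a nucleus had an Rbfox3 UFI. Grey bars (no Rbfox3 UFI) are low for all 5 genes in oligodendrocyte- and astrocyte-like nuclei, while Cacna1c stays at 11.6 in precursors and 14.1 in vascular-like nuclei.

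Across the 19 neuron-like clusters with at least 30 nuclei, the members did not share 1 order. As a description over clusters that share libraries and depth, Pearson's r of the log2 levels was 0.62 for Cacna1c with Cacna1d and 0.61 for Cacna1d with Cacna1e. It was -0.69 for Cacna1g with Cacna1d, -0.66 with Cacna1e, -0.66 with Cacna1i and -0.60 with Cacna1h, and 0.39 for Cacna1h with Cacna1i, so Cacna1g ran against the other T-type genes. Cacna1a ran against Cacna1e (r = -0.57), and the pair of release channels Cacna1a and Cacna1b had an r of -0.05. Cacna1g had an r of 0.29 with Cacna1a. Each cluster counted alike whatever its size. The small Purkinje (34 nuclei) and Syt9-led (33 nuclei) clusters lay at opposite ends for Cacna1a and Cacna1e, and how r depends on them was not tested.

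The genes whose pattern was most like each member, of 6113 genes searched over 25 clusters, were Syndig1 for Cacna1a (r = 0.87), Ntrk2 for Cacna1b (0.92), Mgat5b for Cacna1c (0.80), Celf4 for Cacna1d (0.90), Neurl1a for Cacna1e (0.94), Reep2 for Cacna1g (0.82), Fkbp5 for Cacna1h (0.79) and Cabp1, which encodes a calcium-binding regulator of calcium channels, for Cacna1i (0.89). The next were Fam135b (0.86) and Rgs7 (0.85) for Cacna1a, Grin2b (0.91) and Adgrb1 (0.91) for Cacna1b, Celf3 (0.74) and Paqr3 (0.74) for Cacna1c, and Slc35f4 (0.90) and Rab6b (0.89) for Cacna1d. For Cacna1e they were Celf5 (0.93) and Speg (0.92), for Cacna1g Cpeb1 (0.82) and Nell1 (0.81), for Cacna1h Rprd1a (0.73) and the mineralocorticoid receptor gene Nr3c2 (0.73), and for Cacna1i Nrg1 (0.88) and Rab15 (0.86). Over the neuron-like clusters alone the values of the first genes lay between 0.76 for Reep2 and 0.90 for Neurl1a.

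The auxiliary subunits had kinds of their own. Among the alpha-2-delta genes, Cacna2d1 was highest in upper layer cortical nuclei (15.3 ± 1.11 UFIs per 10000), Cacna2d2 in Purkinje nuclei (8.90 and 9.27 in 2 libraries), Cacna2d3 in medium spiny nuclei (53.3 ± 3.37) and Cacna2d4 in oligodendrocyte-like nuclei (0.427 ± 0.242). Cacna2d2 and Cacna1a thus had the same highest kind. Among the beta genes, Cacnb2 was highest in a cluster led by 4921539H07Rik, 2310002F09Rik and Fibcd1 (22.7 ± 2.69) and in medium spiny nuclei (21.9 ± 3.41), which overlapped. Cacnb4 was highest in the Tshz2-led cluster (18.8 ± 2.97), followed by Purkinje nuclei (14.9 ± 2.54) and Rorb cortical nuclei (14.7 ± 1.70). Cacnb1 reached 0.775 ± 0.144 in medium spiny nuclei, and Cacnb3 0.562 ± 0.176 in the Oprk1-led cluster among kinds with at least 2 libraries.

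Storage was then compared with UFIs summed per library, where fewer nuclei of a kind and less RNA per nucleus cannot be told apart. No member passed the test between frozen and fresh tissue, in all nuclei, in neuron-like nuclei, in medium spiny nuclei or in cortical excitatory nuclei (edgeR quasi-likelihood test with Benjamini-Hochberg adjustment over all genes tested, adjusted p threshold 0.05). The share of all genes called was 0.207% in all nuclei (0.114% higher and 0.0933% lower in frozen tissue), 0.512% in neuron-like nuclei (0.292% and 0.22%), 0.353% in medium spiny nuclei (0.185% and 0.168%) and 0.306% in cortical excitatory nuclei (0.142% and 0.164%). At an unadjusted p under 0.05 there were 4 members in all nuclei (Cacna1c, Cacna1d, Cacna1e and Cacna1h) and 1 in neuron-like nuclei (Cacna1a). There was none in medium spiny or cortical excitatory nuclei. Of all genes tested, 2901 of 19299 had such a p in all nuclei and 2151 of 18174 in neuron-like nuclei. In medium spiny nuclei these were 807 of 11914 genes, and in cortical excitatory nuclei 1397 of 14039. DESeq2 also called 0 members in each population. In all nuclei Cacna1h had the lowest value of frozen against fresh tissue, at -0.18 ± 0.0457 on the log2 scale (SE, adjusted p = 0.161), and the other 7 abundant members lay between -0.16 and 0.05. The median of the 10 members in all nuclei was -0.13, against 0.01 over all genes. Within neurons the member median was nearer that of all genes. It was -0.04 in neuron-like nuclei (9 members tested), -0.005 in medium spiny nuclei (8) and 0.025 in cortical excitatory nuclei (8). The medians over all genes there were 0.002, 0.003 and 0.0006.

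This count of storage calls rested on 1 library. Without the single fresh preindexed library, 4 members passed in neuron-like nuclei, Cacna1a at 0.20 and Cacna1g at 0.27 higher in frozen tissue and Cacna1h at -0.22 and Cacna1i at -0.26 lower, on the log2 scale. The same 4 passed in all nuclei, with 0.20 for Cacna1a, 0.25 for Cacna1g, -0.21 for Cacna1h and -0.25 for Cacna1i. Calls over all genes rose too, from 93 of 18174 to 981 of 16889 in neuron-like nuclei. In all nuclei they rose from 40 of 19299 to 840 of 18125. Cerebellar nuclei, the kind with the most Cacna1a and Cacna1g, were the more frequent in frozen tissue without preindex. Once these nuclei were left out, the direction of both genes turned round among the libraries without preindex. Their levels over all other nuclei were then lower in each frozen library than in each fresh one. This difference in levels was not tested, and the fits above kept the cerebellar nuclei.

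Primer differences were clearer, and Cacna1c and Cacna1g carried them in opposite directions. In neuron-like nuclei Cacna1c had 16.2 and 17.7 UFIs per 10000 in frozen and 17.97 and 18.5 in fresh tissue without preindex, against 19.7, 19.7 and 19.8 in the preindexed libraries. Cacna1g had 1.66, 1.62, 1.39 and 1.42 without preindex, against 0.830 and 0.854 in frozen and 1.03 in fresh preindexed libraries. For both genes the 3 preindexed libraries did not overlap the 4 others, Cacna1c being higher and Cacna1g lower with the preindex. Cacna1a did not overlap either, with 8.95 to 10.2 without and 7.96 to 8.24 with the preindex. As for storage, these sums do not tell the mix of kinds from the level per nucleus. Medium spiny nuclei (Cacna1c at 22.8, Cacna1g at 0.169) made up 8.08% to 12.8% of the nuclei of a library without preindex. In preindexed libraries they made up 12.9% to 14.2%. The part of this share in the neuron-like values was not tested, and fits within single classes follow below.

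**Figure D4:**
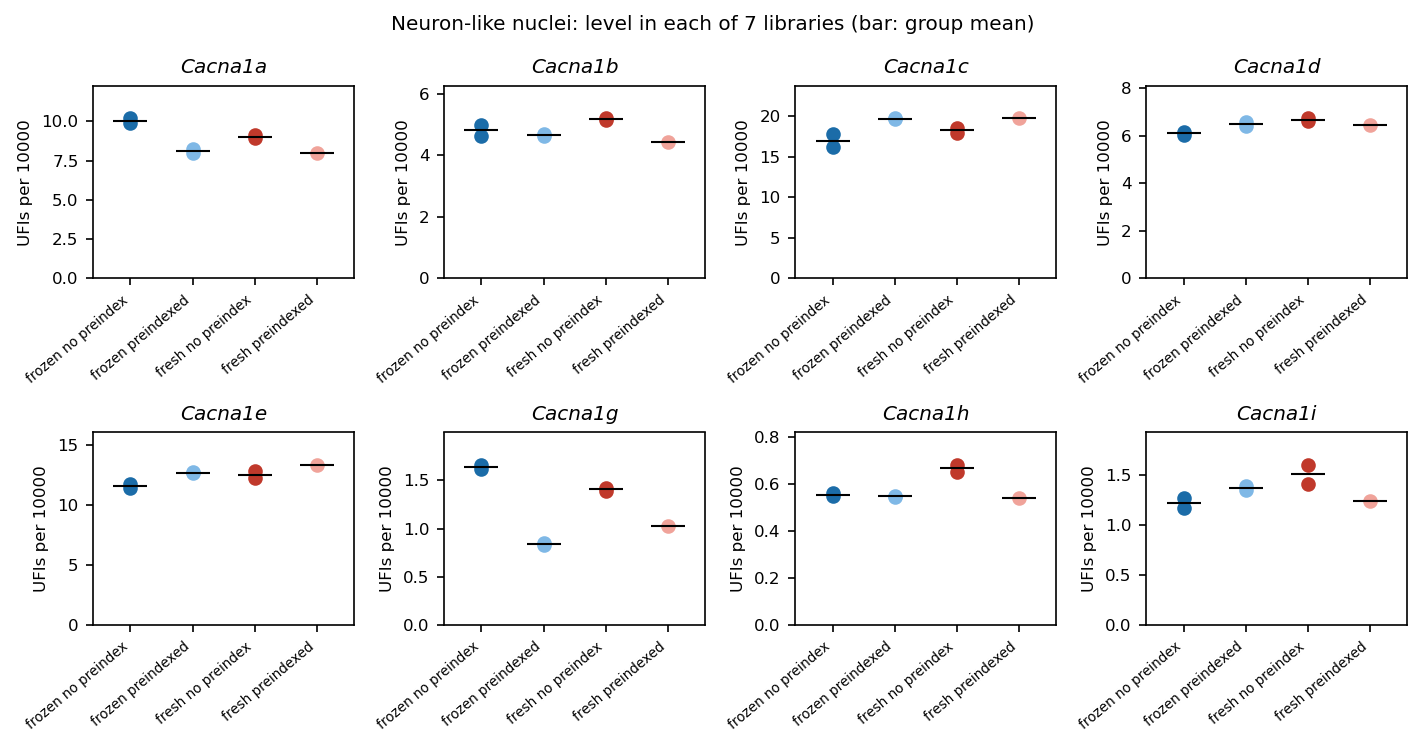
Levels in UFIs per 10000 (vertical axis) of 8 alpha-1 genes in neuron-like nuclei, with each dot 1 of the 7 libraries, placed by group. Cacna1c dots of preindexed libraries (19.7 to 19.8) lie above those without preindex (16.2 to 18.5), and Cacna1g dots (0.830 to 1.03) lie below (1.39 to 1.66), while Cacna1b, Cacna1d, Cacna1e, Cacna1h and Cacna1i overlap between the primers.

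In the edgeR fit of neuron-like nuclei 4 of 9 members tested passed for the primer, where 21.1% of all genes did. Cacna1c was higher with the preindex by 0.32 ± 0.0395 on the log2 scale (SE, adjusted p = 0.000413), Cacna1e by 0.26 ± 0.0415 (adjusted p = 0.00163) and Cacna1d by 0.18 ± 0.0429 (adjusted p = 0.0131). Cacna1g was lower, at -0.60 ± 0.0944 on the same scale (adjusted p = 0.00172). The remaining abundant members did not pass, with -0.11 for Cacna1a (adjusted p = 0.134), 0.03 for Cacna1b, 0.01 for Cacna1h and 0.13 for Cacna1i. Genes called higher were 11.2% and genes called lower 9.94% of all genes tested, and DESeq2 also called 4 members. Cacna1d lost its call when either frozen preindexed library was left out (0.16 and 0.18), and without the fresh preindexed library Cacna1a (-0.18) and Cacna1i (0.29) passed as well.

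The size of these values depended on the scaling. With library totals in place of TMM factors, the median log2 fold change over all genes in neuron-like nuclei moved from -0.04 to -0.19, and the genes called for the primer shifted from 2036 higher and 1807 lower to 687 higher and 4034 lower. Cacna1c (0.17, adjusted p = 0.0158), Cacna1e (0.12, adjusted p = 0.0426) and Cacna1g (-0.75, adjusted p = 0.000376) kept their calls and direction in edgeR under this scaling. Cacna1d did not pass (0.04, adjusted p = 0.576), and Cacna1a passed in its place (-0.26, adjusted p = 0.00212). Cacna1b turned from 0.03 to -0.12 and Cacna1i from 0.13 to -0.02, neither of which passed under either scaling.

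Cerebellar nuclei were absent from the preindexed libraries in the main clustering and are the kinds with the most Cacna1a and, for Purkinje nuclei, Cacna1g. Without the cerebellar clusters the same 4 members passed in neuron-like nuclei, and the log2 fold change of Cacna1g went from -0.60 to -0.31 (edgeR adjusted p = 0.00154). Cacna1c was 0.29, Cacna1e 0.23 and Cacna1d 0.16 higher in that fit, and Cacna1a moved from -0.11 to 0.06. In all nuclei 2 of 10 members passed, against 15.8% of all genes (7.88% higher and 7.88% lower with the preindex), Cacna1c at 0.20 ± 0.0456 (adjusted p = 0.0265) and Cacna1g at -0.73 ± 0.141 (adjusted p = 0.0158) on the log2 scale. Without cerebellar clusters Cacna1g was -0.44 there (adjusted p = 0.00902), and without kidney- and liver-led nuclei Cacna1d and Cacna1e passed as well. Leaving out either frozen preindexed library ended both calls in all nuclei. The Cacna1c call there was also lost without frozen replicate 1 lacking the preindex and without either fresh library lacking it (0.19 to 0.21), the Cacna1g call without frozen replicate 2 lacking it (-0.68), and Cacna1c did not pass in all nuclei with library totals (0.12, adjusted p = 0.0891).

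In the single classes of neurons fewer members passed. In medium spiny nuclei 2 of 8 members tested passed, against 5.42% of all genes (3.06% higher and 2.37% lower), Cacna1c at 0.27 ± 0.0713 (edgeR adjusted p = 0.028) and Cacna1g at -0.99 ± 0.235 (adjusted p = 0.0155) on the log2 scale. Cacna1c had 21.1, 20.5, 23.2 and 22.6 UFIs per 10000 without preindex and 25.2, 23.7 and 23.0 with it, so the groups overlapped on this scale, and it did not pass with library totals (0.14, adjusted p = 0.230). Cacna1g there rested on 17 to 76 UFIs per library, with 0.213, 0.209, 0.1997 and 0.246 UFIs per 10000 without preindex and 0.153, 0.0793 and 0.0835 with it. Leaving out frozen preindexed replicate 2 or the fresh preindexed library ended both calls in this class. Cacna1c was also lost without frozen preindexed replicate 1 or frozen replicate 2 lacking the preindex, and Cacna1g without fresh replicate 2 lacking it (-0.90).

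In cortical excitatory nuclei 1 of 8 members passed, against 6.86% of all genes (4% higher and 2.86% lower), Cacna1c at 0.30 ± 0.0800 on the log2 scale (edgeR adjusted p = 0.0398). Its values of 12.2, 16.1, 13.7 and 14.6 UFIs per 10000 without preindex overlapped the 16.1, 15.2 and 16.5 with it, and it did not pass with library totals (0.18, adjusted p = 0.207) or when any library was left out other than frozen replicate 2 lacking the preindex. Without the fresh preindexed library Cacna1a (0.27) and Cacna1g (-0.39) passed instead. For Cacna1g the value was -0.15 (adjusted p = 0.446) in this class.

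**Figure D5:**
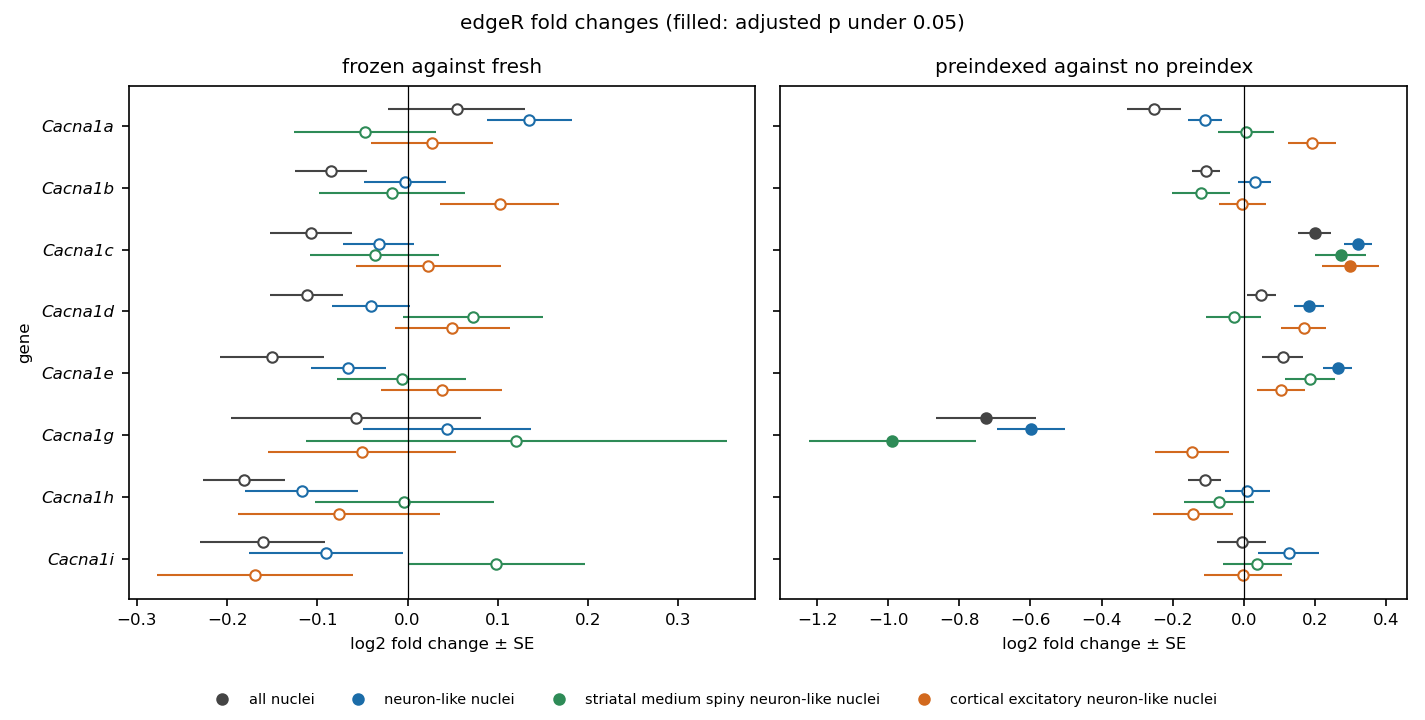
Log2 fold changes ± SE from edgeR (horizontal axis) for 8 alpha-1 genes (vertical axis), for storage (left) and primer (right) in 4 populations of nuclei, with filled points at an adjusted p under 0.05. No storage point is filled, and for the primer Cacna1c is filled in all 4 populations (0.20 to 0.32) and Cacna1g in 3 of them (-0.99 to -0.60).

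Some partner genes were called for the primer, in both directions. In neuron-like nuclei, where 21.1% of all genes were called (11.2% higher and 9.94% lower), 7 of 15 auxiliary subunit genes tested were called higher and 2 lower, and of 20 genes of the release site and of channel regulation 8 were higher and 4 lower. The auxiliary genes had a median log2 fold change of 0.16 and the release and regulator genes one of 0.14, against -0.04 over all genes. The largest rises were in Cacng3 (0.43), Cacnb2 (0.39), Rimbp2, which ties calcium channels to the release site (0.37), Cacna2d3 (0.37) and Cacng4 (0.37). The genes called lower included Stac (-0.51), Calm3 (-0.47), Cacng7 (-0.36) and Cacna2d2 (-0.33), where Calm3 encodes calmodulin, the sensor for calcium-dependent feedback on these channels. With library totals, where 687 genes in all were higher and 4034 lower, the counts were 3 higher and 2 lower for the auxiliary genes and 4 higher and 5 lower for the others. Calm3 and Cacng7 were called lower with the preindex in each of the 4 populations under TMM, from -0.60 to -0.44 for Calm3 and from -0.51 to -0.34 for Cacng7. In all nuclei 3 auxiliary genes were higher and 2 lower of 16 (15.8% of all genes were called), in medium spiny nuclei 3 and 1 of 14 (5.42%) and in cortical excitatory nuclei 2 and 2 of 15 (6.86%), the last with Cacna2d2 at -1.10 and Cacng2 at 0.52. Of the release and regulator genes 3 were higher and 4 lower in all nuclei, 0 and 1 in medium spiny nuclei, and 4 and 2 in cortical excitatory nuclei, where Rimbp2 was 0.47 and Rims1 0.41 higher. For storage 1 partner gene passed in neuron-like nuclei, Cacna2d2, which was 0.27 higher in frozen tissue (edgeR adjusted p = 0.0400). Its highest kind was Purkinje nuclei. Without preindex, cerebellar nuclei made up 11.3% and 10.8% of the frozen libraries and 3.30% and 3.31% of the fresh ones. This fit kept those nuclei, so their part in the Cacna2d2 value was not tested by it. The storage value of Cacna2d2 in neuron-like nuclei without the cerebellar clusters is not given here.

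Finally, the primer difference was itself compared between frozen and fresh tissue over all nuclei. Here 2 of 10 members passed the interaction test, against 16.4% of all genes (9.93% with a positive and 6.49% with a negative value). Cacna1g had 1.59 and 1.55 UFIs per 10000 in frozen tissue without preindex and 0.721 and 0.763 with it, and 1.36 and 1.36 in fresh tissue without preindex and 1.01 with it. The interaction was -0.74 ± 0.0793 on the log2 scale (edgeR adjusted p = 1.51e-05). It rests on the single fresh preindexed library, which is assumed to vary like the libraries of the other groups. Cacna1a had 9.97 and 9.75 without and 7.12 and 7.41 with preindex in frozen tissue, and 8.79 and 8.90 without and 7.81 with it in fresh tissue, an interaction of -0.36 ± 0.0688 (adjusted p = 0.00236). Without the cerebellar clusters, which were most frequent in frozen tissue without preindex, Cacna1g was at -0.31 (adjusted p = 0.0161) and Cacna1a at -0.17 (adjusted p = 0.110). Without kidney- and liver-led nuclei, which were most frequent in frozen preindexed tissue, Cacna1g was at -0.59 (adjusted p = 0.00046) and Cacna1a at -0.20 (adjusted p = 0.0843). Of the partner genes 2 auxiliary genes passed with a positive and 4 with a negative value, and 0 and 6 of the release and regulator genes.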

How the data were processed

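The deposited files hold raw counts of UFIs per gene and nucleus, 1 matrix per library. Per the study's methods, the authors trimmed adapters and tails with Cutadapt, chose barcodes by a read cutoff set by hand, mapped reads with STAR and retained those with a single place in the genome. They then counted over the whole gene, introns included, with featureCounts and collapsed fragments with UMI-tools. The submitters' notes name GRCm38 and mm10 beside GRCh38, with no versions, and the strand option of featureCounts is not given in the sources used here, though the study describes UFIs as strand-specific.

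Alpha-1 genes, partner lists and tests were chosen with earlier results of these data known. Nuclei were scaled to 10000 UFIs, and 2000 variable genes in unit variance (clip 10) gave 40 principal components, 10 neighbours and Leiden clusters at resolution 0.4 (scanpy 1.11.5, leidenalg 0.10.2, Python 3.11.15). The unit variance was adopted after clusters without it, and the alpha-1 levels in them, had been seen. The naming rule, which asks for at least 3 markers raised 2 times over the other clusters, was written after the clusters were seen and amended once after its first output. The cluster called layer 6 corticothalamic had all 6 markers of its list raised but none among its 10 leading genes. No doublet caller was run, and leaving out the 5% of nuclei with most UFIs was an alternative.

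Counts were summed per library and tested with edgeR 4.0.16 (R 4.3.3; filterByExpr, TMM, quasi-likelihood test on storage and primer, Benjamini-Hochberg over all genes tested), with 4 residual degrees of freedom; the interaction was fitted on all nuclei. Standard errors are the log2 fold change divided by the square root of F. Named genes were the 10 alpha-1 genes, at most 5 partner genes with the largest change each way among those called (by name for the primer in neuron-like nuclei and the interaction, otherwise by examples), the alpha-2-delta and beta genes by kind, and for each alpha-1 gene the 3 most alike genes over clusters. One partner gene is not reported here. Library totals run from 8605214 to 42439731 UFIs, and intervals cover counting error only. On data simulated for storage in all nuclei (18604 genes, 200 changed), 52.5% of changes of 1 and 88.8% of changes of 2 on the log2 scale were recovered, and 6.08% of calls were false. Smaller changes, such as the storage values of the abundant alpha-1 genes, were not simulated, and no primer difference was put in. Gene positions and pore codons were read from GENCODE vM21, with no genome of another build used. Replicate numbers did not pair libraries (correlations of 0.05, -0.04 and -0.01 over 19299 genes). Alternatives included DESeq2 1.42.0, upper-quartile scaling, no filter, a replicate block, each library left out, and cerebellar or kidney- and liver-led nuclei left out. Library totals in place of TMM were added after seeing the data.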

Additional observations from a re-analysis of the deposited data

Results flagged for a closer look

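The results below were picked out because the primer difference itself differed between frozen and fresh tissue in the interaction test over all nuclei (edgeR quasi-likelihood test, Benjamini-Hochberg over all genes tested). Each value is the log2 primer ratio in frozen tissue minus that in fresh tissue, and fresh tissue with preindex is a single library. Among the alpha-1 genes these were Cacna1g at -0.74 (adjusted p = 1.51e-05) and Cacna1a at -0.36 (adjusted p = 0.00236). Without the cerebellar clusters they were -0.31 (adjusted p = 0.0161) and -0.17 (adjusted p = 0.110).

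Among the partner genes, the auxiliary subunits Cacna2d4 (1.13, adjusted p = 0.0216) and Cacng5 (0.55, adjusted p = 0.0107) had positive values. Negative values were seen for Stac, a channel adaptor (-0.90, adjusted p = 0.000986), Cacng2, also known for binding glutamate receptors (-0.55, adjusted p = 0.000113), Snap25 of the release machinery (-0.52, adjusted p = 9.41e-05), Calm2, 1 of the calmodulin genes (-0.50, adjusted p = 0.00245) and Cacnb2 (-0.44, adjusted p = 0.00359). Of all genes tested, 16.4% were called in this interaction test. The fit kept the kidney-like nuclei, which were found only in the frozen preindexed libraries. Without kidney- and liver-led nuclei the 3168 calls over all genes became 1481. The values of Cacna1g and Cacna1a were then smaller in size, and Cacna1a did not pass. Values of the partner genes without those nuclei are not given here. Because the groups hold 1 or 2 libraries, no search for a library far from the others of its group could be run.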

How the results depend on the processing

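For storage in all nuclei, the count of alpha-1 genes called went from 0 to 1 with no filter on low counts (Cacna1e, -0.17) and from 0 to 4 over the libraries left out in turn, and in neuron-like nuclei it also ran from 0 to 4 over those. The 4 were reached only without the fresh preindexed library, where storage was compared in tissue without preindex only. There the storage value of Cacna1g in all nuclei reversed to 0.25. Over the libraries left out that value ran from -0.15 to 0.25. Over all genes, storage calls in all nuclei went from 40 of 19299 to 1937 of 34496 with no filter. Without the fresh preindexed library they were 840 of 18125 in all nuclei and 981 of 16889 in neuron-like nuclei. For the primer in all nuclei the 2 calls became 1 with the replicate block, 1 with upper-quartile scaling, 4 with no filter and 4 without kidney- and liver-led nuclei, and ran from 0 to 4 over the libraries left out. In neuron-like nuclei the 4 primer calls ran from 3 to 6, in medium spiny nuclei the 2 calls ran from 0 to 2 and became 1 with library totals, and in cortical excitatory nuclei the 1 call ran from 0 to 2 and became 0 with library totals and 0 with the replicate block. The 2 interaction calls ran from 2 to 4, with 4 without fresh replicate 1 lacking the preindex, and were 3 with library totals (Cacna1a -0.26, Cacna1g -0.65 and Cacna1i 0.32). The replicate block changed no other count of calls by over 1.5 times. Over all genes, primer calls in all nuclei went from 3041 of 19299 to 1731 with the replicate block and 2866 with upper-quartile scaling. They were 4787 of 34496 with no filter and 3605 of 18660 without kidney- and liver-led nuclei. With library totals, 666 of 11914 genes were called for the primer in medium spiny nuclei and 1112 of 14039 in cortical excitatory nuclei. The interaction calls were then 3247 of 19299. The cause of these changes was not tested.

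Levels moved beyond the spread between libraries in 82 of the values recomputed and did not in 2308. Shares of nuclei with a UFI left their interval in 206 cases and not in 64 when nuclei were not thinned, so they hold at the thinned depth only. With 20 principal components Cacna1a in Purkinje nuclei was 35.6 and Cacna1g 13.1. Cacna1i was 0.685 in the cluster then named interneuron-like, which held 926 nuclei and was not the small cluster of the main setting. Under that name Cacna1i was 0.978 with unscaled genes and 2.59 without the 5% of nuclei with most UFIs. Of 11 settings, the kind of the same name stayed highest in 11 for Cacna1c and Cacna1h and in 10 for Cacna1d and Cacna1e. It did so in 8 for Cacna1a, Cacna1b and Cacna1g, and in 7 for Cacna1i. A change of sign was not counted where neither value passed the threshold, which was so for 97 values.

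Counts over all genes depended on the fit. For storage 40 genes in all nuclei became 318 with DESeq2, 1937 with no filter, 5 with the replicate block and 14 without cerebellar clusters, and 4 to 840 with a library left out. The 93 in neuron-like nuclei became 178 with DESeq2, 789 with no filter and 39 with the block, and 25 to 981 with a library left out, and the 42 in medium spiny nuclei became 28 with DESeq2 and 27 to 60 with a library left out, and the 43 in cortical excitatory nuclei became 18 to 103. For the primer 3041 genes in all nuclei became 1731 with the block and 4787 with no filter, and 1009 to 5668 with a library left out. The 646 in medium spiny nuclei became 419 with DESeq2 and 171 to 701 with a library left out, and the 963 in cortical excitatory nuclei 568 with the block and 438 to 1066. The 3168 interaction calls became 1885 with DESeq2 and 1481 without kidney- and liver-led nuclei. With library totals the primer calls split into 856 higher and 2327 lower in all nuclei (1521 and 1520 with TMM), 117 and 549 in medium spiny nuclei (364 and 282) and 230 and 882 in cortical excitatory nuclei (561 and 402). The storage calls split into 19 and 25 in all nuclei (22 and 18) and 45 and 67 in neuron-like nuclei (53 and 40), and the interaction calls into 2482 and 765 (1916 and 1252). With DESeq2 the primer split was 1913 and 1158 in all nuclei, 1885 and 1096 in neuron-like nuclei and 299 and 120 in medium spiny nuclei, and with upper-quartile scaling the interaction split was 1681 and 1830.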
